A study of Drosophila melanogaster with 3 samples.

Results

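The genes cabut (cbt), u-shaped (ush), plexus (px), Lk6 and HmgZ were examined as targets of CG1602, a chromatin-bound protein profiled by ChIP-seq in whole Drosophila melanogaster embryos. These 5 of the 13968 annotated protein-coding genes were chosen as regulator genes with very strong sites. A region in or next to each was among the 20 strongest of the list of reproducible regions. All regions with a summit in a gene or within 5 kb of it were then taken as that gene's regions. This gave 24 of the 4599 reproducible regions, with the 4 regions shared by the windows of cbt and ush counted once.

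The embryos were aged 0 to 24 h, of mixed sex, and came from a transgenic strain, CG1602-GFP, that stably expresses CG1602 with GFP fused to its C terminus. Chromatin was precipitated with an antibody against GFP in 3 biological replicates, which form 1 group with no second condition. Each replicate was called against the same control. Endogenous, untagged CG1602 was not analysed here, and whole embryos mix all tissues and stages, so a region cannot be assigned to a cell type.

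The genes encode regulators of different kinds. Cabut is a zinc finger transcription factor related to mammalian TIEG proteins and takes part in dorsal closure of the embryo and in metabolic gene control. U-shaped is the fly Friend of GATA cofactor, which binds GATA factors such as Pannier and Serpent and tempers their activity in the dorsal ectoderm and in blood cells. Plexus is a nuclear protein that restrains wing vein formation, Lk6 is the fly MNK kinase, which phosphorylates the translation factor eIF4E, and HmgZ is a DNA-bending HMG box protein. ChIP-seq marks where the tagged protein sat on DNA, and a summit is the position of greatest enrichment in a region.

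The reference sequences at 5 summits are shown because they are the regions that selected cbt, ush and Lk6 and the leading sites in the ush introns. They are given 5′ to 3′ on the plus strand of dm6, from the RefSeq copy of the assembly, and capitals mark the span between the lowest and the highest summit of the 3 replicates. The first is the strongest region of cbt and ush (chr2L:480976-481176) and the second the next strongest, just upstream of cbt (chr2L:480020-480120). The ones after that lie deep in ush (chr2L:522030-522130 and chr2L:520805-520905), and the last is the strongest region of Lk6 (chr3R:11760937-11761137).
cbt and ush, rank 2: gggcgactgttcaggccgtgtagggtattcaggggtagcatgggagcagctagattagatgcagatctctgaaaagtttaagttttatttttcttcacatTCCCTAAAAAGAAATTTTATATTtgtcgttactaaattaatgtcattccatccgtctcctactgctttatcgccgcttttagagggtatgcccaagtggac
cbt and ush, rank 188: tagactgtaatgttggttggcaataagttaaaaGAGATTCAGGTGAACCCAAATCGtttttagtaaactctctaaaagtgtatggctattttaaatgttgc
ush, rank 888: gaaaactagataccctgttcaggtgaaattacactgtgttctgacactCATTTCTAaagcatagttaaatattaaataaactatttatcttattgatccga
ush, rank 1002: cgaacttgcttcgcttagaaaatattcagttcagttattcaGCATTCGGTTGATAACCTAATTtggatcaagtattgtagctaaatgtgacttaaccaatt
Lk6, rank 10: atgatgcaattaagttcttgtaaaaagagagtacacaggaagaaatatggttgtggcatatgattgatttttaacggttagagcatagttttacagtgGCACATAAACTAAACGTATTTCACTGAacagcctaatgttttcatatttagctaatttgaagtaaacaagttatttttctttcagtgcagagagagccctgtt

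The replicate summits of the rank 2 region fell in an A and T rich run flanked by more GC-rich sequence. At the rank 188 region the capitals cover 23 bases, at the rank 888 region 8 bases, at the rank 1002 region 22 bases and at the Lk6 region 27 bases.

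The values that selected the 5 genes are the signal values of the list of regions that passed the irreproducible discovery rate (IDR) filter. They are relative to the control, in arbitrary units, and were used only to rank regions within a list. The region shared by cbt and ush had a signal of 3147 (rank 2), that of px 2347 (rank 7), that of Lk6 2009 (rank 10) and that of HmgZ 1744 (rank 17). Just inside the limit of 20 lay regions nearest to CG18549 (1699), CG13323 (1684) and CG1602 itself (1640), and just outside it regions nearest to CG1888 (1604), Fkbp14 (1529) and CG32772 (1523). Of the 5 genes, HmgZ was the nearest to the limit. As descriptions of how the genes were picked, these values carry no test. The IDR list holds the 4599 highest of 16640 regions called on the pooled replicates (27.6%), so its ranks are the pooled ranks.

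The 4 strongest regions ranked near the top of every replicate list, which were among the inputs of the pooled and IDR lists. The cbt and ush region had signals of 1187, 704.8 and 1258 in replicates 1, 2 and 3, where it ranked 1, 1 and 2. The px region had signals of 822.9, 584.4 and 954.7 and ranked 8, 3 and 7. Each replicate thus placed px below the cbt and ush region and above the remaining pair. Lk6 had signals of 671.3, 475.9 and 868.4 at ranks 12, 8 and 11. HmgZ had 664.2, 358.2 and 726.5 at ranks 13, 23 and 18. The order of the 4 regions was the same in 3 of 3 replicates, but in replicate 1 Lk6 and HmgZ took adjacent ranks with nearly the same signal. In replicate 2 HmgZ ranked outside the 20 strongest.

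**Figure D1:**
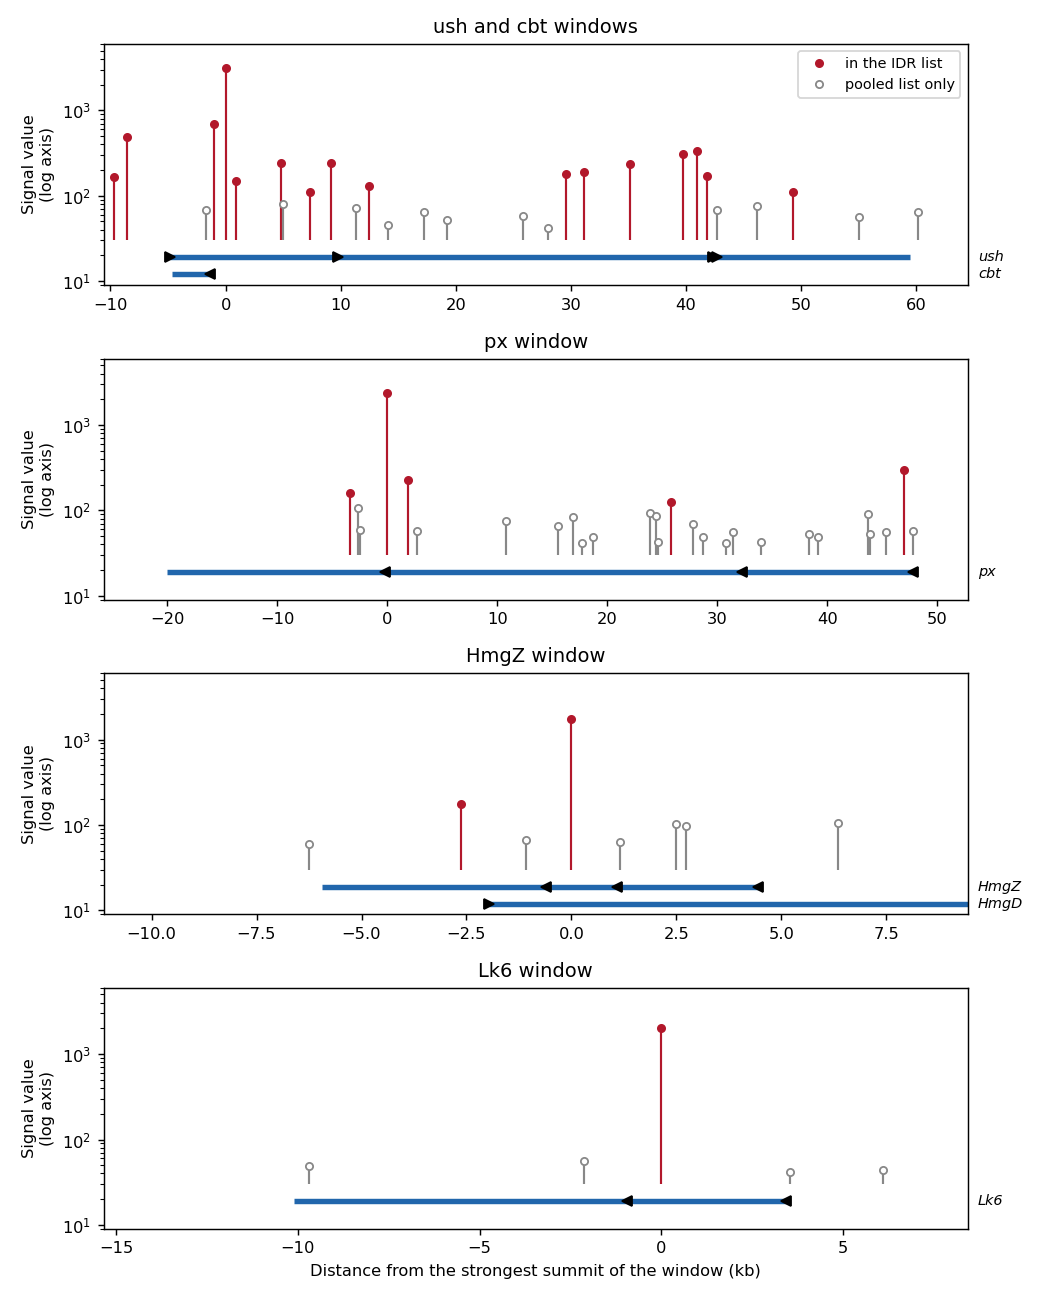
Regions in the windows of the genes, 1 panel per window. The x axis is the distance from the window's strongest summit (kb) and the y axis the signal value of the pooled list (log axis); filled red points are regions in the IDR list, open grey points regions of the pooled list only, blue bars the genes and arrowheads their transcription start sites. Each window holds 1 region far above the rest, at 3147 for ush and cbt, 2347 for px, 2009 for Lk6 and 1744 for HmgZ, and ush has a further 15 IDR regions.

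Cabut and ush occupy the same stretch of arm 2L. The cbt gene (FBgn0043364, chr2L:476446-479688, minus strand) lies within the first part of ush (FBgn0003963, chr2L:476220-540560, plus strand), so their strongest region, chr2L:480883-481315, cannot be assigned to either gene. Its summit at 481076 lay in an intron of ush, 1388 bp upstream of the only cbt transcription start site (TSS) and 4856 bp downstream of the first ush TSS. The second region, with its summit at 480070, lay 382 bp upstream of the cbt TSS and had a signal of 698.1 (rank 188). Its replicate signals were 251.0, 147.7 and 313.8, at ranks 180, 234 and 161. The third had its summit at 472493 in intergenic sequence, with a signal of 485.0 (rank 427) and replicate ranks of 500, 445 and 398. It lay 293 bp upstream of CG4297 and 520 bp upstream of MED15, which encodes a subunit of the Mediator coactivator complex. The order of these 3 regions was the same in 3 of 3 replicates.

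The last region shared by the cbt window was weak and unevenly measured. Its summit at 481955, also in a ush intron, had a signal of 151.0 (rank 3047). It ranked 2398 and 2633 in replicates 1 and 3 but 9120 in replicate 2.

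Ush held further regions along much of its 64341 bp, 16 in its window in all. Near its internal TSS at 490835, which starts 1 ush transcript and is shared with lncRNA:CR46258, a region with its summit at 490234 had a signal of 244.3 (rank 1531; replicate ranks 1722, 2005 and 1231). Farther in, summits at 520855 and 522080 had signals of 312.3 and 335.0. The one at 520855 ranked 1357, 503 and 1105 in replicates 1, 2 and 3, and the one at 522080 ranked 847, 848 and 1014. Their order held in 2 of 3 replicates, so they cannot be ranked against each other. The summit at 522080 lay 1386 bp upstream of the ush TSS at 523466, and another at 522936 (signal 169.9, rank 2590) lay 530 bp upstream of it. The other ush regions had signals between 109.3 and 245.1, and neighbours in their order kept it in 1 to 3 of 3 replicates. Gaps between adjacent ush summits ran from 856 to 17125 bp, with a median of 2577 bp.

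No ush TSS had an IDR summit within 500 bp. The nearest lay 3727 bp upstream of the first TSS, 601 bp upstream of that at 490835, 530 bp upstream of that at 523466 and 800 bp upstream of that at 523736. The last of these starts had a weaker pooled region 57 bp downstream (signal 67.7, rank 7917).

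Plexus (FBgn0003175, chr2R:22494297-22562065, minus strand) is slightly longer than ush, at 67769 bp, but held 5 IDR regions. The strongest, chr2R:22514114-22514499, had its summit at 22514312 in an intron of the long px transcripts. It lay 213 bp upstream of the TSS of a short px transcript, at 22514099. The next, at 22561287, lay 778 bp downstream of the TSS at 22562065 where 4 of the 6 px transcripts start, with a signal of 293.8 (rank 1104). It ranked 1347, 696 and 1297 in replicates 1, 2 and 3. A region at 22516181 (signal 229.3, rank 1700) ranked 2092, 1315 and 1888, and this order of 3 px regions held in 3 of 3 replicates. The remaining regions, at 22510953 and 22540053, had signals of 161.6 and 125.9. The one at 22510953 ranked 1028 in replicate 2 but 4118 and 4782 in replicates 1 and 3. The px window also held 22 pooled regions that were not in the IDR list, of 44 in all windows. The strongest of them (106.5, rank 4682) missed the list narrowly, while the weakest ush region in it had 109.3 (rank 4535).

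Lk6 (FBgn0017581, chr3R:11750931-11764457, minus strand) held a single IDR region, chr3R:11760863-11761224, whose sequence is printed above. Its summit at 11761037 lay in an intron of the long transcript, 958 bp upstream of the TSS of the short one, at 11760079. The TSS of the long transcript, at 11764457, lay 3420 bp from it. A pooled region 127 bp upstream of that start had a signal of 41.1 and ranked 16541 of 16640. The other pooled regions of the Lk6 window ranked 9881 or lower, so in the pooled list the strong region stood alone in 23.5 kb. In replicates 1, 2 and 3 the next region of the window ranked 6672, 6719 and 5765, each at a different place. That of replicate 3, with its summit at 11764581, lay at the start of the long transcript.

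HmgZ (FBgn0010228, chr2R:21697488-21707861, minus strand) overlaps its close relative HmgD, which encodes another HMG box protein and runs on the opposite strand. The strongest region, chr2R:21703185-21703680, had its summit at 21703426, in introns of the longer HmgZ transcripts and 596 bp upstream of the TSS at 21702830 where the other 2 start. It also lay within the longest HmgD transcript, which starts at 21701458. The other IDR region, at 21700797, lay 661 bp upstream of that HmgD start and had a signal of 176.6 (rank 2483). It ranked 2918, 3782 and 2109 in replicates 1, 2 and 3. Both regions therefore count for both genes.

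The 4 strongest regions shared a position, noticed with its limit of 1500 bp after the values were seen. All 4 had their summit in an intron and at most 1500 bp upstream of the nearest TSS. This held for 8 of the 24 regions of the 5 genes (33.3%), for 1 of the 16 other regions among the 20 strongest and for 13.8% of all IDR regions. Of the 4, only the px region lay within 500 bp of a TSS, against 14 of those 16 others. The 5 genes were picked as regulators from among the genes at the 20 strongest regions. The 16 others are therefore no neutral comparison, and the contrast was not tested.

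Over all 24 regions, 4 lay within 500 bp of a TSS of any gene (16.7%, 95% Clopper-Pearson interval 4.74 to 37.4%), against 49.5% of all 4599. They were the regions at 471344 and 472493, next to CG4297, that at 480070 at cbt, and the strongest px region. Within 1000 bp the share was 41.7% (10 of 24), against 59.4%. It was 8.33% (2 of 24) within 250 bp, 8.33% with gene 5′ ends as the only start sites, and 9.09% (2 of 22) with windows of 2 kb on each side. Introns held 22 of the 24 summits (91.7%, interval 73.0 to 99.0%), against 45.9% of all. Windows drawn around gene bodies leave out regions far from the 5 genes, and 16 of the 24 lie in the ush window, so ush weighs most in both shares. Without the windows of ush and cbt, 1 of 8 summits lay within 500 bp of a TSS (12.5%), and all 8 lay in introns. Among 13 start sites of the 5 genes, only that of cbt and that of the short px transcript had an IDR summit within 500 bp.

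The number of regions per gene set ush apart from the other members. Its 16 IDR summits were exceeded by 1 of the 13968 protein-coding genes, CG1677 on X with 20 in a window of 134.7 kb, and equalled by kirre on X in one of 404.1 kb. The ush window covers 74.3 kb. Among 355 genes with windows of 50 to 100 kb the median was 1 region, the upper quartile 3, and ush alone reached 16. In the same class 39 genes had at least the 5 of px. The cbt count of 4 was reached by 435 genes and the HmgZ count of 2 by 3015. All 5 genes have an IDR summit because they were chosen that way, and 6739 of all protein-coding genes had 1 or more (48.2%), from 43.6% of those with windows of 10 to 15 kb to 66.6% of those of 50 to 1000 kb. Per 10 kb of window, cbt held 3.02 IDR summits, ush 2.15, HmgZ 0.98, px 0.64 and Lk6 0.43, against 0.344 over the chromosome arms. Each of these densities includes the region that chose the gene, and the value for the arms is not limited to gene windows. Genes with windows of 15 to 25 kb had a mean of 1.08 summits, against 1 at Lk6 and 2 at HmgZ.

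**Figure D2:**
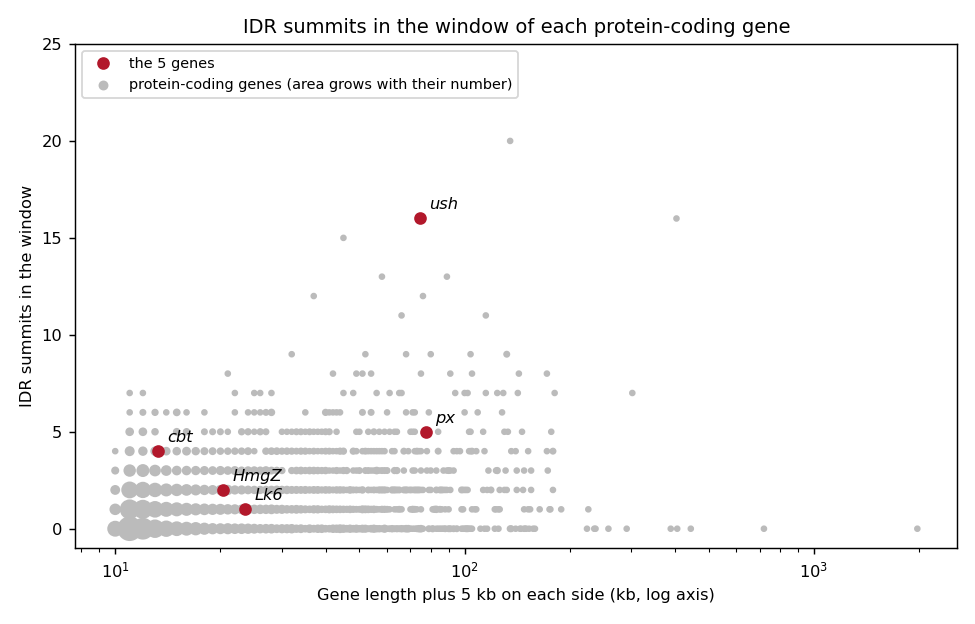
Number of IDR summits in the window of each protein-coding gene (y axis) against the window length, gene plus 5 kb on each side (kb, log axis). Red points are the 5 genes, grey points all genes with an area that grows with their number; ush stands at 16 summits in 74.3 kb, px at 5 in 77.8 kb, cbt at 4, HmgZ at 2 and Lk6 at 1.

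Of the 68 pooled regions in the windows, 24 were in the IDR list (35.3%, interval 24.1 to 47.8%), against 27.6% of all pooled regions. The 4 regions that chose the genes are in that list by the rule. Without them the share was 31.25% (20 of 64, interval 20.2 to 44.1%). With them it was 80% in the cbt window (4 of 5), 57.1% in the ush window, 25% for HmgZ, 20% for Lk6 and 18.5% for px. At Lk6 the region that chose the gene is the only IDR region. Without the windows of ush and cbt the share was 20% (8 of 40, interval 9.05 to 35.6%). Of the 44 regions outside the IDR list, 20 were in all 3 whole replicate lists (45.5%), against 43.7% of all such regions.

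Replicates were compared on lists of equal length, the strongest 4599 regions of each. Of the 24 regions, 18 were held by all 3 (75%, interval 53.3 to 90.2%), near the 73.6% of all IDR regions. Replicates 1, 2 and 3 held 23, 20 and 22 of the 24, against 90.0%, 84.6% and 92.1% of all. The regions not held by all were ush summits at 481955, 488444, 493516 and 530373 and px summits at 22510953 and 22540053. The ush summit at 530373, at ranks 2640, 6196 and 8161, was held by replicate 1 only. The 18 strongest of the 24 were held by all 3. Every one of the 24 was in the 3 whole lists, as were 4583 of all 4599 IDR regions.

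**Figure D3:**
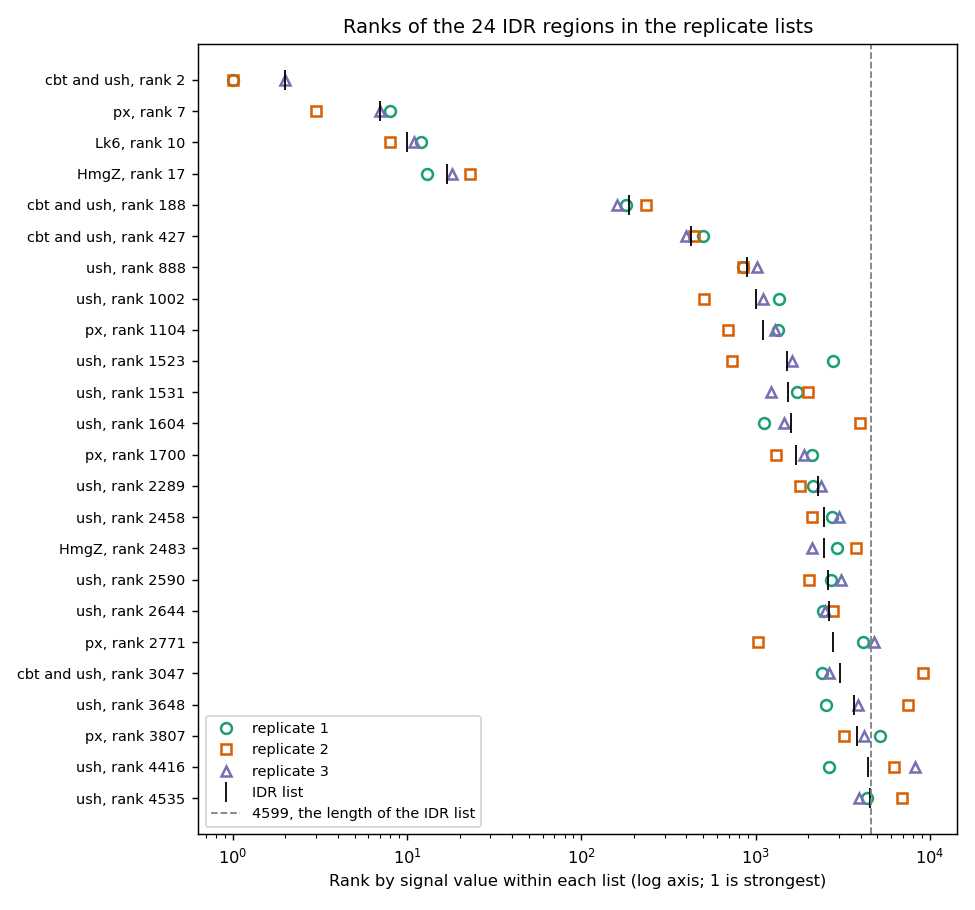
Rank of each of the 24 IDR regions in the 3 replicate lists (coloured symbols) and in the IDR list (black bars), by signal value within each list (log axis, 1 is strongest); the dashed line marks rank 4599. The 4 strongest regions rank 23 or better throughout, and several weak regions spread widely between replicates, such as 2398, 9120 and 2633 for the region of rank 3047.

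Summits of the replicates lay close together. The 3 summits of a region spanned a median of 24 bp in the 5 genes (quartiles 18 and 39, range 4 to 92, n = 24), against 43 bp over all IDR regions found in each replicate (quartiles 22 and 76, n = 4583). Strong regions had narrower spans, and among regions above the median rank of the IDR list the medians were 21.5 bp (n = 14) and 35 bp. The 4 strongest spanned 22 bp for cbt and ush, 6 bp for px, 26 bp for Lk6 and 20 bp for HmgZ. The 16 others among the 20 strongest had a median of 11.5 bp, lower than all of these but px. At ush the summit at 522080 was fixed to within 7 bp, while those at 516206 and 530373 spread over 82 and 92 bp.

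**Figure D4:**
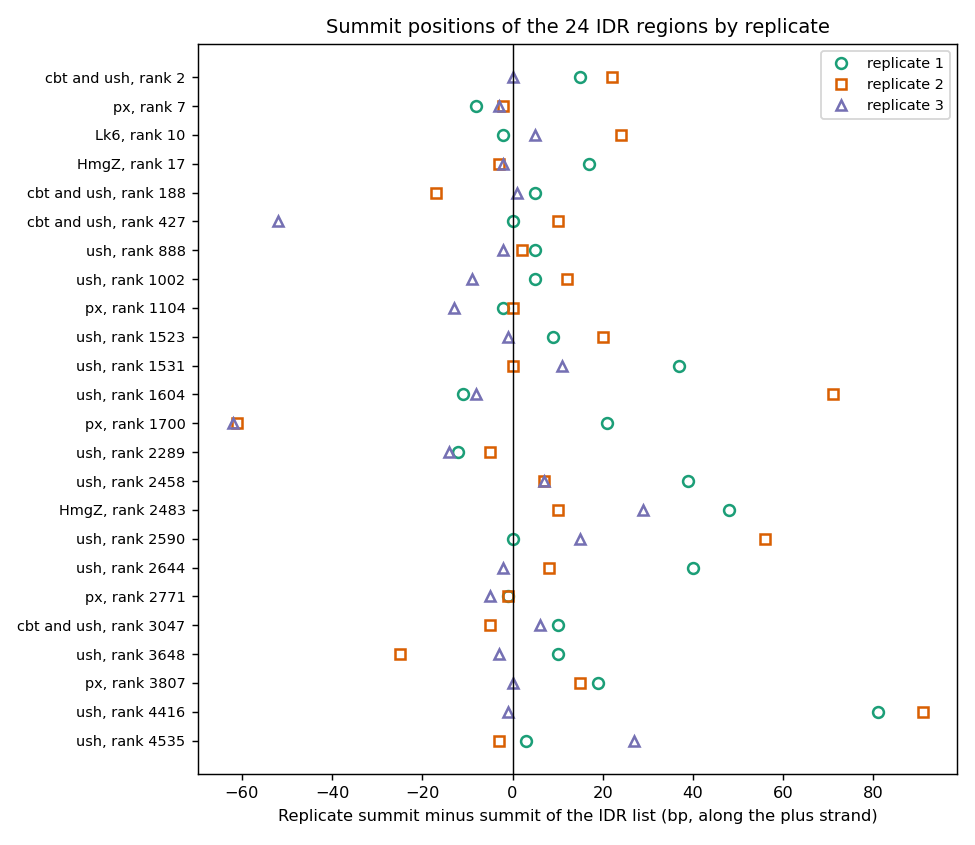
Position of each replicate's summit relative to the summit of the IDR list (x axis, bp along the plus strand) for the 24 regions, ordered from strongest at the top. The px region of rank 7 shows summits within 6 bp of each other, and that of ush at rank 4416 a spread of 92 bp.

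GC content of the reference sequence, which the choice of genes did not use, was 36.7% ± 5.91 (SD, n = 24) within 100 bp of the summits of the 5 genes and 34.0% ± 6.31 (n = 4575) at the other IDR regions. In windows 1000 bp away it was 41.9% ± 5.40 and 42.8% ± 7.12. The summit was poorer in GC than the windows 1000 bp away in 19 of the 24 regions (79.2%), with a mean difference of -5.16 percentage points, against 83.9% and -8.76 points for the others. The ush and px summits at 485867 and 22540053 were among the 5 exceptions.

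The strongest cbt and ush region was another exception on this scale. Its GC content of 41.3% was 7.21 points above that of the windows 1000 bp away, and 87.0% of all IDR regions had a lower one. Those distant windows were themselves low in GC, at 34.1% against a mean of 42.8% over all IDR regions. In a narrower window of 101 bp the GC content at the summit fell to 24.8%, the lowest of the 4. There HmgZ had 25.7%, px 29.7% and Lk6 32.7%, against a mean of 32.2% over all IDR regions. The wider value thus reflects the flanks of a narrow dip, which can be read in the printed sequence. Over 201 bp px had 36.3%, Lk6 32.8% and HmgZ 31.3%, each below its surroundings.

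**Figure D5:**
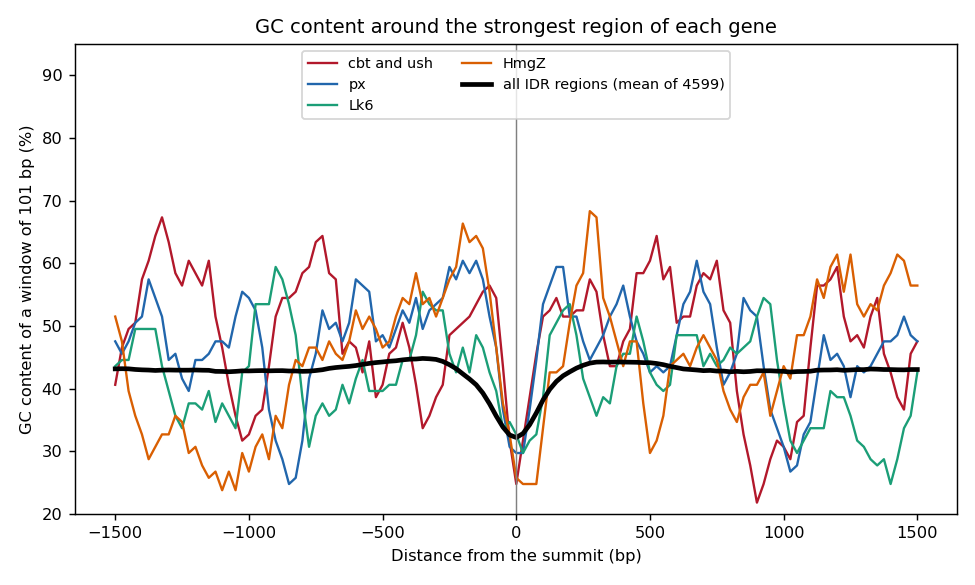
GC content of the reference in windows of 101 bp (y axis, %) against the distance from the summit (x axis, bp) for the strongest region of each gene (thin lines) and the mean of all 4599 IDR regions (thick black line). All lines dip near the summit, to 24.8% for cbt and ush against 32.2% for the mean, and the single regions also reach low values elsewhere, as cbt and ush do at 21.8% 900 bp away.

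Short sequence words were searched on both strands within 100 bp of each summit. TATAAA, the core of the TATA box, was in 5 of the 24 windows (20.8%), against 39.7% of all IDR regions and 21.5% of windows 1000 bp away. In the rank 2 region it lies on the minus strand 15 to 20 bases after the summit, and in the HmgZ region on the plus strand 15 to 10 bases before it. AGATAA, the only form of the GATA site that was searched, was in 5 of 24 (20.8%), against 14.9% of all. Of these 5, 4 were ush regions, that of rank 888 printed above among them, but 16 of the 24 regions lie in the ush window. None was among the strongest 4 regions, against 6 of the 16 others among the 20 strongest. GAGAGAG was in 2 windows (8.33%), among them that of Lk6, against 2.91% of all. CAGCTG was in 1 window (4.17%), against 7.63% of all, and CACACACA in 1 (4.17%), against 2.52%. The words TATCGATA, the DNA replication-related element, and GGTCACAC, CAGGTAG, AACCGGTT and CACTGAGA were in 0 of 24, where all IDR regions held them at 0.152 to 4.09%.

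The word ACACTG led over all IDR regions, followed by the words ACAGTG and, in the next place, CACTGA. All 3 were picked after the data were seen. At least 1 of them was in 9 of the 24 windows (37.5%), close to the 38.4% of all IDR regions, against 18.5% of windows 1000 bp away. A single stretch of DNA can hold more than 1 of them, since their letters overlap. In the Lk6 sequence above, ACAGTG lies 8 to 3 bases before the summit and CACTGA 19 to 24 bases after it, at the end of the capitals. The px region had ACACTG on the plus strand 92 to 87 bases before its summit and on the minus strand 79 to 84 bases after it. In the ush region of rank 888, ACACTG lies 20 to 15 bases before the summit. The strongest regions of cbt and ush and of HmgZ held none of the 3 words.

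Genes linked to the 5 by pathway or by family were taken from 6 lists, 48 genes in all, of which 30 had an IDR summit in their window (62.5%). Their median window was 20.2 kb, and 59.8% of all protein-coding genes with windows of 15 to 25 kb had at least 1. Each list was set against the length class of its median window, which does not match every gene of the list. Among cbt's relatives, the Krüppel-like and SP factors, 3 of 6 had a summit (50%), with dar1 at a signal of 323.2, luna at 236.4 and Spps at 206.3. The class of their median window, 25 to 50 kb, had a share of 65.1%. However, Klf15, btd and Spps have windows of 10 to 15 kb, where the share was 43.6%, and luna has one above 50 kb. No shortfall can therefore be read from the 65.1%. Of the GATA factors and the corepressor CtBP that work with U-shaped, 4 of 6 had a summit (66.7%), led by srp (164.8), GATAd (159.5) and grn (154.6). Their median window also falls in the class of 25 to 50 kb (65.1%), but GATAd, GATAe and CtBP have windows of 15 to 25 kb (59.8%). Pannier, the main GATA partner of U-shaped in the dorsal ectoderm, had none.

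JNK and TGF-beta signalling, the pathways of dorsal closure in which cbt acts, had a summit in 10 of 12 genes (83.3%). Its median window of 20.8 kb falls in the class of 15 to 25 kb, where 59.8% of all protein-coding genes had at least 1. Medea (Med, 1078, rank 62) and Mad (577.9, rank 295), which encode the SMAD transcription factors of the Dpp pathway, had the highest signals, and the ligand gene dpp followed at 320.1. The JNK phosphatase gene puc held 6 regions, while the kinase genes bsk and hep held none. Of the wing vein genes, with a median window of 33.5 kb, 6 of 9 had a summit (66.7%), against 65.1% of all genes with windows of 25 to 50 kb. They were led by the receptor gene N (547.7), the ligand gene vn (326.4) and the blistered gene bs (238.3).

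Around Lk6, 5 of 9 genes of translation control had a summit (55.6%). Their median window was 12.8 kb, and 43.6% of all genes with windows of 10 to 15 kb had at least 1. The kinase genes p38a (571.3), Tor (354.5) and p38b (225.6) led, and eIF4E1, whose product is the substrate of the kinase, and its scaffold gene eIF4G1 had none. Thor, which encodes the eIF4E-binding protein, held 3 weak regions with signals of at most 124.2. Among HMG box genes, with a median window of 12.7 kb, 2 of 6 had a summit (33.3%), against the same 43.6%. They were Dsp1 (476.1, rank 444) and HmgD, whose strongest region is the one that selected HmgZ.

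The regions most like the strongest 4 in their replicate ranks were found by the Euclidean distance of log10 ranks over 3 replicates, a measure of order only. Nearest to the cbt and ush region was that at CG14100 (ranks 2, 2 and 1; distance 0.521), and nearest to px that at CG11050 (9, 4 and 9; 0.174). Nearest to Lk6 was that at PNPase (11, 9 and 12; 0.0740), which encodes an RNA-degrading enzyme of mitochondria, and nearest to HmgZ that at CG9147 (15, 18 and 17; 0.126).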

How the data were processed

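ChIP-seq of GFP-tagged CG1602 in whole embryos was analysed from the region lists that the authors deposited for dm6. Per the file headers, each replicate list came from that replicate's alignments and 1 shared control, and the pooled and IDR lists were derived from all 3. Per the labels, chromatin was sonicated to a size range of 200 to 800. No source used here gives the aligner, the peak caller or the IDR threshold. The deposited signal value of each region is relative to the control, on an unstated scale, and the deposited −log10 q-value, capped at 3.84 in the IDR list, was not used to rank. Read depth is unknown, and intervals cover counting error only. The dm3 lists were not used here.

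Regions were matched to genes and transcription start sites of Ensembl release 115, and replicate regions by at least 1 shared bp. Sequence came from the RefSeq copy of the assembly. The genes and lists were chosen with earlier results of these data known, so no test was made. Named genes were the 5, neighbours holding or within 500 bp of their summits, up to 3 strongest genes per partner list, and the nearest region by ranks; others, such as MED15, lncRNA:CR46258 and genes named for a count or for holding no summit, were chosen after their values were seen. Of the partner genes, 2 were found through synonyms. Alternatives covered window size, stricter lists, matching, replicates, start site distance and sequence window. The measures were tested on simulated data. Plots used matplotlib 3.10.9, and computations scipy 1.17.1, pandas 2.3.3, numpy 2.4.6 and Python 3.11.15.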

Additional observations from a re-analysis of the deposited data

How the results depend on the processing

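Of 61 alternative values, 7 moved past a set limit, which was the 95% interval for a share, 1 SD over regions for a mean or median and 1.5 times for a count. With only the IDR regions above the median rank, the windows held 14 regions in place of 24, these made up 20.6% of the pooled regions in place of 35.3%, and 100% of them were held by all 3 replicates in place of 75%. With whole replicate lists the share held by all 3 was also 100%, where 4583 of all 4599 IDR regions were in the 3 whole lists. Without the windows of ush and cbt, an alternative chosen after seeing the data, 8 regions remained, 20% of the pooled ones. Within 1000 bp of a TSS the share was 41.7% in place of 16.7%; inside the interval, it was 8.33% within 250 bp or with gene 5′ ends only and 9.09% with windows of 2 kb. Leaving out 1 replicate gave 79.2 to 87.5% held by the remaining pair and a median summit span of 13 to 16.5 bp, since fewer summits are spanned. CACTGAGA was found within 200 bp of 2 of the 24 summits (8.33%). Its share over all IDR regions was not taken at that distance, so no excess can be read from this value. The partner genes with a summit numbered 29 with windows of 2 kb, 36 with 10 kb and 20 with only regions above the median rank. No paired analysis was possible because all replicates belong to 1 group. Read depth is not known from the lists, so no value here can be set against it.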
